A study of Mus musculus with 3 samples.

Results

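The genes examined were 44 mouse genes of cell-cell adhesion and epithelial identity, given as a list of names. They comprised 8 cadherins, 4 catenins, 8 claudins, 7 other genes of the tight junction and of Epcam, 9 genes of the desmosome and its plakins, and 8 epithelial regulators and polarity genes. All 44 were found, by Ensembl identifier, among the 29267 genes of each table. Their RNA was measured by RNA-seq in mouse embryonic fibroblasts (MEFs) of the OG2 strain, in MEFs of the ICR strain, both at passages 3 to 5, and in embryonic stem cells (ESCs) of the R1 line at passage 30, labelled naive, with 1 library each and no treatment named in the labels. OG2 mice are known to carry an Oct4-GFP transgene, which reports pluripotency, and the labels name no transgene for ICR or R1. The 2 MEF samples differed in strain, so their spread covers strain and sample together. The ESC side was 1 library of 1 line, and no replicate check of it was possible.

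Cadherins are calcium-dependent adhesion proteins whose extracellular parts bind cadherins on the neighbouring cell, while their cytoplasmic tails bind catenins that link them to actin. Fibroblasts usually carry N-cadherin and cadherin-11, whereas epithelia and mouse ESCs are known for E-cadherin together with Epcam. Tight junctions are sealed by claudins and occludin and anchored by the ZO scaffolds, and desmosomes join keratin filaments through desmogleins, desmocollins, plakophilins and desmoplakin. The loss of the fibroblast set and the gain of the epithelial set is called mesenchymal-epithelial transition, which MEFs undergo on the way to pluripotency.

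The libraries differed in depth and in kind. The expected counts, which are numbers of reads estimated by RSEM, came to 5149312 for the OG2 sample, 4590619 for the ICR sample and 1717838 for the ESC one, so 3 counts corresponded to 0.583, 0.654 and 1.75 CPM (counts per 1000000). The fibroblast list of 10 genes was at or above 1 TPM (transcripts per 1000000, a level per gene length) for all 10 genes in both MEF samples. Of 14 pluripotency genes, 6 had 0 counts in the ESC library, Zfp42, Dppa5a and Lin28a among them, and the highest 3 were Pou5f1 at 29.6 TPM, Nanog at 14.0 TPM and Sox2 at 7.02 TPM. Of the 9 with a count in any library, 7 were at least 1 log2(CPM + 1) unit higher there than in both MEF samples. That is 77.8%, beside 21.9% of all genes with a count, and Tdgf1 was among the 7 at only 2 counts. Klf2 went the other way, with 63 counts for OG2, 91 for ICR and 2 for ESC. The ESC library is therefore called the library labelled ESC, and every difference from it rests on that label. In all 3 samples, fewer cells of a type and less RNA per cell cannot be told apart.

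Among the 8 cadherins, both MEF samples were led by Cdh11, with Cdh2 and Cdh3 behind it. Cdh11, the type II cadherin of mesenchyme, was at 2822 counts for the OG2 sample, 2718 for the ICR sample and 10 for the library labelled ESC. Its level was 248 and 280 TPM in the MEF samples and 1.29 TPM in the library labelled ESC. The MEF samples were thus close to each other and far above the library labelled ESC. The log2(CPM + 1) difference of Cdh11, the library labelled ESC minus the MEF mean, was -5.98, where the SD of the MEF samples was 0.050 (n = 2). By counts per scaled library it was 71.5-fold lower, with a 95% exact interval of 38.9 to 149 that covers counting error only. The adjusted p was 4.9e-07 in edgeR's quasi-likelihood test, which had 1 residual degree of freedom and took its spread from the MEF samples alone.

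Cdh3 encodes P-cadherin, which is better known from basal epithelium and placenta. Its level was 39.9 TPM in OG2 MEFs and 41.6 TPM in ICR MEFs, from 426 and 380 counts. The library labelled ESC had 0 of 1717838 counts, which allows up to 1.75 CPM with 3 counts as the limit and 2.24 CPM as the upper end of the Wilson 95% interval. Cdh3 RNA was thus present in both MEF samples and was not detectable in the library labelled ESC. There it was at least 34.2-fold lower than in the MEF sample nearer to it, with 3 counts taken as its limit. Cdh3 passed edgeR's filter on low counts only through the MEF samples, so its p-value is not given. Cdh1, which encodes E-cadherin, lies next to Cdh3 on chromosome 8 of GRCm38, where Cdh3 spans 106510891 to 106557297, Cdh1 spans 106603351 to 106670246, and 46.1 kb separate them. Cdh1 had 0 counts in both MEF samples and 2 in the library labelled ESC, or 1.16 CPM (Wilson 95% interval 0.319 to 4.25). No fold is given for Cdh1, because all 3 libraries lay at or under 3 counts. These neighbours thus differed by a large margin within the MEFs, and neither stood above 3 counts in the library labelled ESC.

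Cdh2, or N-cadherin, was the most abundant cadherin of the library labelled ESC. Given, as from here on, in the order OG2 MEFs, ICR MEFs, library labelled ESC, it had 796, 642 and 199 counts and levels of 71.3, 63.9 and 21.7 TPM. Its log2(CPM + 1) was 7.06 ± 0.13 (SD, n = 2) in MEFs and 7.17 in the library labelled ESC, a difference within the spread of the MEF samples (edgeR adjusted p = 0.19). The fold by counts was 1.07 with an exact interval of 0.920 to 1.24. This comparison depends on scale, since the difference became -1.60 on log2(TPM + 1), a scale on which the median of all genes with 10 counts in a library moved by -1.11. Cdh13, or T-cadherin, lacks a cytoplasmic tail and is held by a lipid anchor. It had 88, 120 and 84 counts, and a log2(CPM + 1) difference of 1.61 (edgeR adjusted p = 0.00034), which turned to -0.036 on log2(TPM + 1). Its level in TPM was 15.6 and 14.9 in the MEF samples and 14.8 in the library labelled ESC.

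The remaining cadherins were at low levels. Cdh6, a type II cadherin of kidney and neural crest, had 13 and 14 counts in the MEF samples and 0 in the library labelled ESC. It passed edgeR's filter on low counts only through the MEF samples, so its p-value is not given. Cdh5, which marks endothelium, and Cdh15, which marks muscle precursors, had 1 count each in OG2 MEFs and 0 in the other libraries. Both were therefore under the limit of 3 counts in every library, while other markers of these cell types were not all absent. Of 11 endothelial markers, whose summed level was 21.2, 42.6 and 55.6 TPM, 4, 6 and 3 had over 3 counts. They moved in different directions. By log2(CPM + 1), 4 of the 9 with a count were at least 1 unit higher in the library labelled ESC and 1 was lower. That is 44.4% and 11.1%, beside 21.9% and 25.9% of all genes with a count. Among the higher, Egfl7 had 28, 27 and 22 counts (a difference of 1.46), Pecam1 0, 0 and 90, and Tek 3, 4 and 23. Kdr, the lower one, had 61, 54 and 0, while Emcn at 10, 36 and 1 and Erg at 14, 26 and 2 were between. Sox17 and Sox18 had no counts. Of 7 myogenic markers, whose summed level was 64.1, 42.4 and 8.84 TPM, Des made up nearly all of the sum in MEFs at 63.7, 41.4 and 3.70 TPM. Chrna1 went the other way with 5, 2 and 42 counts, and Myod1 and Pax7 had 0 counts in all 3 libraries. The part of these cell types in the cadherin results was not tested.

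**Figure D1:**
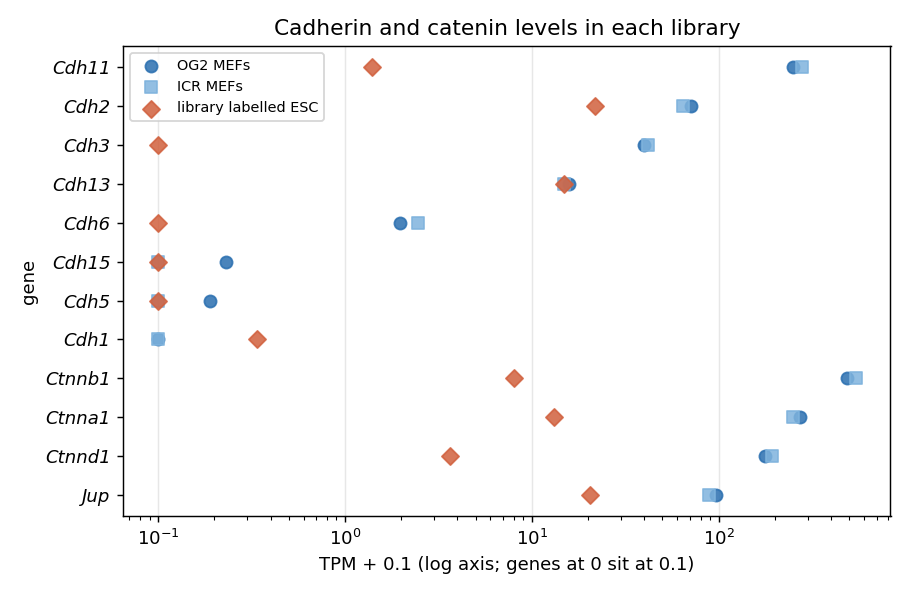
Level of 8 cadherins and 4 catenins in each library, as TPM + 0.1 on a log axis, with circles for OG2 MEFs, squares for ICR MEFs and diamonds for the library labelled ESC. The MEF samples lie close together for Cdh11, Cdh2 and Cdh3, and the diamonds of Cdh3 and Cdh6 sit at the left edge because their TPM is 0.

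By level per length, the order in MEFs was Cdh11 (264 ± 22.1 TPM, SD, n = 2), Cdh2 (67.6 ± 5.20), Cdh3 (40.8 ± 1.21), Cdh13 (15.2 ± 0.54) and Cdh6 (2.13 ± 0.35). Each step in this order was larger than the spread of the MEF samples, and the order was the same in both. Cdh11 made up 65.8% of the summed TPM of the 8 cadherins in OG2 MEFs and 69.5% in ICR MEFs, against 3.39% in the library labelled ESC. There, Cdh2 made up 57.0% and Cdh13 39.0%, while Cdh1 made up 0.631%. The summed level itself was 377 and 403 TPM in the MEF samples and 38.0 TPM in the library labelled ESC. In CPM the sums were closer, at 805, 844 and 172. Cadherin-11, N-cadherin and P-cadherin thus made up most of the set in MEFs, and N-cadherin and T-cadherin most of it in the library labelled ESC.

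**Figure D2:**
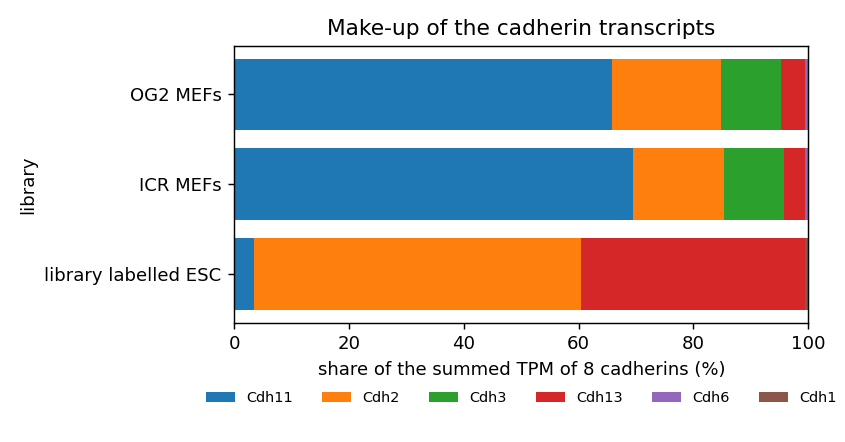
Share of each cadherin in the summed TPM of 8 cadherins, in percent, with 1 bar per library and 1 colour per gene (Cdh5 and Cdh15, at 0 to 0.034%, are not drawn). Cdh11 fills 65.8% and 69.5% of the MEF bars, and Cdh2 and Cdh13 fill most of the bar of the library labelled ESC.

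Ctnnb1, Ctnnd1 and Ctnna1, which encode cytoplasmic partners of cadherins, were far lower in the library labelled ESC, and Jup did not pass the test. Ctnnb1, or beta-catenin, which also carries Wnt signals, had 4550 and 4284 counts in the MEF samples and 53 in the library labelled ESC. Its log2(CPM + 1) difference was -4.39 with a MEF SD of 0.026 (n = 2), 21.5-fold by counts with an interval of 16.4 to 28.8. Ctnnd1, or p120-catenin, which keeps cadherins at the membrane, had 2388, 2230 and 37 counts and a difference of -3.96. Ctnna1, or alpha-catenin, which binds actin, had 2684, 2123 and 91 counts and a difference of -2.74. All of these passed edgeR's quasi-likelihood test, with adjusted p-values of 9.2e-07, 1.43e-06 and 1.02e-05 in that order. Jup, or plakoglobin, which serves adherens junctions and desmosomes alike, had 755, 605 and 119 counts, a difference of -0.55 with a MEF SD of 0.14 and an edgeR adjusted p of 0.093. On log2(TPM + 1) the difference of Jup was -2.12 and it was called lower. In level per length, Ctnnb1 was 5.03 and 6.13 times Jup in the MEF samples and 0.387 times Jup in the library labelled ESC. The order of their RNA levels was thus turned around.

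Over the whole list, 42 of 44 had a count in at least 1 library, and Cldn6 and Tjp3 had none. A member is called higher or lower here when its log2(CPM + 1) in the library labelled ESC was at least 1 unit from each MEF sample. Of the 42 members, 16 were higher and 8 were lower, beside 21.9% higher and 25.9% lower among the 17810 genes with a count. On log2(TPM + 1) these counts became 10 higher and 13 lower, and no share of all genes is given on that scale. There the median difference of all genes with 10 counts in a library moved by -1.11. On log2(CPM + 1) the median difference of the members was 0.67, against -0.13 over all genes with a count. Both are smaller in size than 0.78, the difference that 1 count in the library labelled ESC gives a gene with 0 in MEFs. The medians thus rest on genes with few reads, and no conclusion is drawn from them. Of the 16 higher members, 9 had at most 12 counts in the library labelled ESC, so their size rests on few reads. edgeR's filter on low counts left 24 members to test, of which 7 were higher (Cdh13, Cldn3, Dsp, Pkp1, Pkp4, Evpl and Esrp2) and 6 lower (Cdh3, Cdh11, Ctnna1, Ctnnb1, Ctnnd1 and Tjp1) at an adjusted p under 0.05. Among the 12663 genes tested, 31.4% were called higher and 36.0% lower, so a call was common in this comparison. Cldn3, Pkp1 and Evpl passed the filter only through their counts in the library labelled ESC, so they had to differ, and their p-values are not given. Without them, 4 members were called higher. Of the 6 lower, Cdh3 passed the filter only through the MEF samples, with 0 counts in the library labelled ESC, so its p-value is not given either. Without Cdh3, the lower ones were Cdh11, Ctnna1, Ctnnb1, Ctnnd1 and Tjp1.

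**Figure D3:**
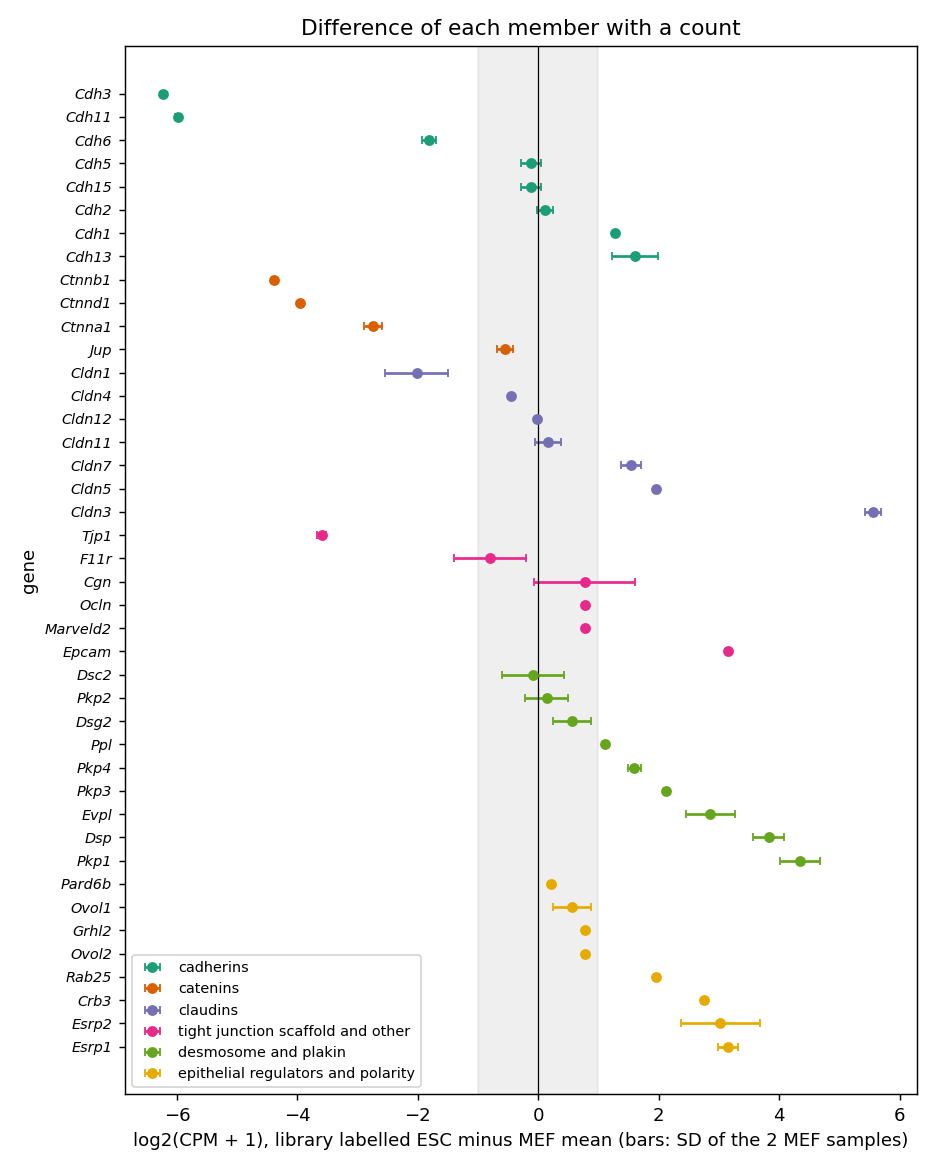
Difference in log2(CPM + 1), the library labelled ESC minus the MEF mean, for the 42 members with a count, by role; bars are the SD of the 2 MEF samples and the grey band spans 1 unit on each side of 0. Cdh3, Cdh11, Ctnnb1, Ctnnd1 and Tjp1 lie beyond -3, and Cldn3 and Pkp1 lie beyond 4; points with few counts, such as Cdh1, Cldn7 and Rab25, are drawn with the same symbol.

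The claudins form the paracellular seal, and 1 of them stood out in the library labelled ESC. Cldn3, a claudin of simple epithelia, had 2, 1 and 82 counts, the last of which corresponds to 47.7 CPM (Wilson 95% interval 38.5 to 59.3). Its log2(CPM + 1) difference was 5.56 with a MEF SD of 0.13, and the count ratio was 212 with an exact interval of 70.0 to 1048. Its neighbour Cldn4, which lies 39.3 kb away on chromosome 5 of GRCm38 (Cldn4 at 134945119 to 134946934, Cldn3 at 134986214 to 134987472), had 2, 2 and 0 counts. One member of this pair of related genes was therefore detected in the library labelled ESC without the other. Cldn6, known from early embryonic epithelium, had 0 counts in all libraries, and Cldn7 had 1, 0 and 3. Cldn5, the endothelial claudin, had 0, 0 and 4 counts, and Cldn11, the claudin of myelin and Sertoli cells, had 4, 2 and 1. Cldn1, of skin barrier, was found in MEFs at 12 and 22 counts and had 0 in the library labelled ESC. Since Cldn1 passed edgeR's filter on low counts only through the MEF samples, its p-value is not given. Cldn12 was the main claudin of the MEFs, with 217 and 198 counts or 24.3 and 26.3 TPM, and its 53 counts in the library labelled ESC gave a fold of 0.989 with an exact interval of 0.729 to 1.32. On log2(TPM + 1), where those 53 counts stand for 7.46 TPM, its difference was -1.64 and it was called lower.

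Of the other tight junction genes, Tjp1, F11r and Cgn had over 3 counts in both MEF samples, and Ocln, Marveld2 and Tjp3 had none. Tjp1, which encodes the scaffold ZO-1, had 672, 574 and 12 counts, and its log2(CPM + 1) difference of -3.60 passed edgeR's test with an adjusted p of 4.7e-06. Ocln and Marveld2, which encode occludin and tricellulin, had 0 counts in the MEF samples and 1 count each in the library labelled ESC. Tjp3, or ZO-3 of epithelia, had 0 counts everywhere. F11r, or JAM-A, had 75, 128 and 14 counts, with a difference of -0.80 and a MEF SD of 0.60, which became -1.99 and a lower call on log2(TPM + 1). Cgn, or cingulin, had 6, 19 and 6 counts and was the only member whose MEF samples were at least 1 log2(CPM + 1) unit apart, beside 2.76% of all genes with a count. On log2(TPM + 1) that member was F11r instead, at 11.4 and 27.4 TPM. Among the 19 members with at least 10 counts in both MEF samples, the absolute difference between the strains had a median of 0.17 and a maximum of 0.92.

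Epcam, the adhesion protein that marks epithelia and pluripotent cells, was found only in 1 library. It had 0 counts in both MEF samples and 11 in the library labelled ESC, or 6.40 CPM (Wilson 95% interval 3.58 to 11.5) and 2.95 TPM. It was at least 13.6-fold higher there when 3 counts are taken as the limit of each MEF sample and the 11 counts as measured, without their own counting error. Crb3, the apical polarity protein Crumbs3, had 0, 0 and 8 counts, at least 9.88-fold higher on the same terms. Rab25, a small GTPase of epithelial recycling, had 0, 0 and 4 counts, or 2.33 CPM with a Wilson 95% interval of 0.906 to 5.99. None of these was tested, because their summed counts fell under edgeR's filter. All 3 were thus at low level in the library labelled ESC and had no count in the MEF samples.

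Transcription factors of the Snail and Zeb families hold epithelial genes down in mesenchyme by binding the E-box CAGGTG. The 250 bases before each RefSeq start on GRCm38.p6 were therefore searched for CAGGTG and its reverse complement CACCTG. For a gene with several RefSeq starts, the start with the most E-boxes was used, for the members and for all genes alike. Of the 44 members, 26 had a promoter in the RefSeq table, Cdh1 not among them. The E-box was present in 10 of 17 promoters of the epithelial subset defined below (58.8%), in 1 of 9 of the other members (11.1%, Pkp4), and in 19.4% of 27025 genes overall. A match is a description of the letters and no evidence of binding in these cells. The windows printed here, 90 bases ending at the base before the start, belong to genes at 0 to 2 counts in the MEF samples and are shown because they hold an E-box close to the start. Capitals mark the E-box. Epcam lies on the plus strand at chr17:87635889-87635978, Crb3 on the plus strand at chr17:57062111-57062200, Rab25 on the minus strand at chr3:88548280-88548369 and Cldn4 on the minus strand at chr5:134946935-134947024. In the GENCODE annotation Crb3 spans 57059105 to 57065918, so its window lies inside the gene, before an internal start. Rab25 spans 88542029 to 88548300 there, so its window overlaps the gene.
Epcam: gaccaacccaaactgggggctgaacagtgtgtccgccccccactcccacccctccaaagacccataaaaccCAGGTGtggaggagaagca
Crb3: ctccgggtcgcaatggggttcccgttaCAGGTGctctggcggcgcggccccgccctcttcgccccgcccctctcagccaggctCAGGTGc
Rab25: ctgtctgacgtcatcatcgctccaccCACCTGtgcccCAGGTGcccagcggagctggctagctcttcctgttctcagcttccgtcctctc
Cldn4: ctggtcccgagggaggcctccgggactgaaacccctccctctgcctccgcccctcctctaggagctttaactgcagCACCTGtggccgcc
Crb3 and Rab25 hold 2 E-boxes each in these windows, and Epcam and Cldn4 hold 1. Within the 250 bases, Crb3 has 3 and Epcam 2. The 10 epithelial members with an E-box comprised 4 that were higher in the library labelled ESC (Epcam, Crb3, Rab25 and, at only 3 counts, Cldn7). The other 6 were not (Cldn4, Cldn6, Ocln, Tjp3, F11r and Pard6b), and of these Cldn6 and Tjp3 had no count in any library. In the whole epithelial subset, 13 of the 28 genes with a count were higher (46.4%), beside 21.9% of all genes with a count. Cldn3 and Dsp, both higher, hold none in their 250 bases.

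The factors themselves were measured in the same libraries. Snai1 had 233, 239 and 7 counts, Snai2 222, 268 and 13, Zeb1 402, 392 and 17, and Twist2 333, 268 and 14. These 4 of the 6 mesenchymal factors lay at least 1 log2(CPM + 1) unit under both MEF samples (66.7%, beside 25.9% of all genes with a count). Their differences were -2.89, -2.16, -2.50 and -2.35. Twist1 had 254, 252 and 32 counts, with a log2(CPM + 1) of 5.58 as the MEF mean and 4.58 in the library labelled ESC. It passed edgeR's test (adjusted p = 0.010) but was not 1 unit from both MEF samples. Zeb2, at -0.62 with 367, 352 and 60 counts, passed neither. Their summed level was 314 and 359 TPM in the MEF samples and 40.8 TPM in the library labelled ESC.

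Of the 9 desmosome genes, 6 were higher (66.7%, beside 21.9% of all genes) and none was lower. On log2(TPM + 1) 3 were higher (Dsp, Pkp1 and Pkp3) and 1 lower (Pkp2), with no share of all genes given on that scale. Dsp, or desmoplakin, which ties desmosomes to keratin filaments, had 54 and 65 counts in the MEF samples and 236 in the library labelled ESC. Its difference was 3.83 with a MEF SD of 0.25 (edgeR adjusted p = 4.17e-07), and the fold by counts was 15.4 with an exact interval of 12.3 to 19.3. Pkp1, a plakophilin of stratified epithelium, had 0, 2 and 32 counts and a difference of 4.35 with a MEF SD of 0.33. Evpl, or envoplakin of the cornified envelope, had 11, 5 and 23 counts and a difference of 2.86 with a MEF SD of 0.41. Pkp4, an armadillo protein that is also found outside desmosomes, had 214, 177 and 155 counts and a difference of 1.60 (edgeR adjusted p = 2.12e-05). On log2(TPM + 1), Evpl was at 0.96 and Pkp4 at 0.62, both short of 1 unit.

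The desmosomal cadherins did not accompany them. Dsg2, or desmoglein-2, had 2, 0 and 1 counts, and Dsc2, or desmocollin-2, had 9, 17 and 3. Pkp2, the plakophilin of heart and simple epithelia, had 175, 112 and 40 counts, a difference of 0.14 within a MEF SD of 0.35, which became -1.31 and a lower call on log2(TPM + 1). Ppl, or periplakin, had 16, 14 and 10 counts, and its difference of 1.11 turned to -0.088 on log2(TPM + 1). Pkp3 had 3, 3 and 8 counts. Its 12.8 TPM in the library labelled ESC came from those 8 counts over a transcript length that RSEM set at 462 bases there, against 960 and 1075 bases in the MEF samples, so its TPM does not carry across the libraries. In level per length, Dsp was 0.0244 and 0.0366 times Jup in the MEF samples and 0.758 times Jup in the library labelled ESC.

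Among the epithelial regulators, the splicing factors had over 3 counts in the library labelled ESC and the transcription factors did not. Esrp2, which directs epithelial splicing, had 10, 22 and 42 counts and a difference of 3.03 with a MEF SD of 0.65 (edgeR adjusted p = 0.00026), which was 0.75 on log2(TPM + 1). Esrp1, its paralogue, had 1, 0 and 12 counts, a difference of 3.15 that was not tested. The transcription factors Grhl2 and Ovol2 had 0, 0 and 1 counts each, and Ovol1 had 2, 0 and 1. All 3 therefore stayed under the limit of 3 counts in every library. Pard6b, of the apical Par complex, had 23, 22 and 7 counts and a difference of 0.22, which was larger than the MEF SD of 0.034, with an edgeR adjusted p of 0.57.

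How complete the epithelial programme was can be read from 30 members that are mainly epithelial, which leaves out the catenins other than Jup, the mesenchymal, endothelial and muscle cadherins, Cldn5, Cldn11, Cldn12, Tjp1 and Pkp4. In the library labelled ESC, 16 of the 30 had over 3 counts, beside 38.4% of all 29267 genes there. In each MEF sample 12 of the 30 did, beside 44.7% and 45.1% of all genes, although these libraries were deeper. The 30 genes fell into those with over 3 counts in all libraries (9, which were Jup, F11r, Cgn, Dsp, Pkp2, Ppl, Evpl, Esrp2 and Pard6b), in the library labelled ESC alone (7, which were Epcam, Cldn3, Pkp1, Pkp3, Esrp1, Crb3 and Rab25), in the MEF samples alone (3, which were Cdh3, Cldn1 and Dsc2) and in none (11). The first class held 30% of the subset and 35.1% of all genes. The second class held 23.3% of the subset and 2.31% of all genes, and the third 10% and 7.99%. The last class held Cdh1, Cldn4, Cldn6, Cldn7, Ocln, Marveld2, Tjp3, Dsg2, Grhl2, Ovol1 and Ovol2. The 16 genes over 3 counts in the library labelled ESC were thus the plaque proteins and plakins Jup, Dsp, Pkp1, Pkp2, Pkp3, Ppl and Evpl, the tight junction and membrane genes Cldn3, F11r, Cgn and Epcam, the polarity and trafficking genes Crb3, Pard6b and Rab25, and the splicing factors Esrp1 and Esrp2. At most 3 counts were found there for E-cadherin, P-cadherin, occludin, tricellulin, the desmosomal cadherins and the transcription factors. With 1717838 counts, a level under 1.75 CPM was not detectable in this library.

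**Figure D4:**
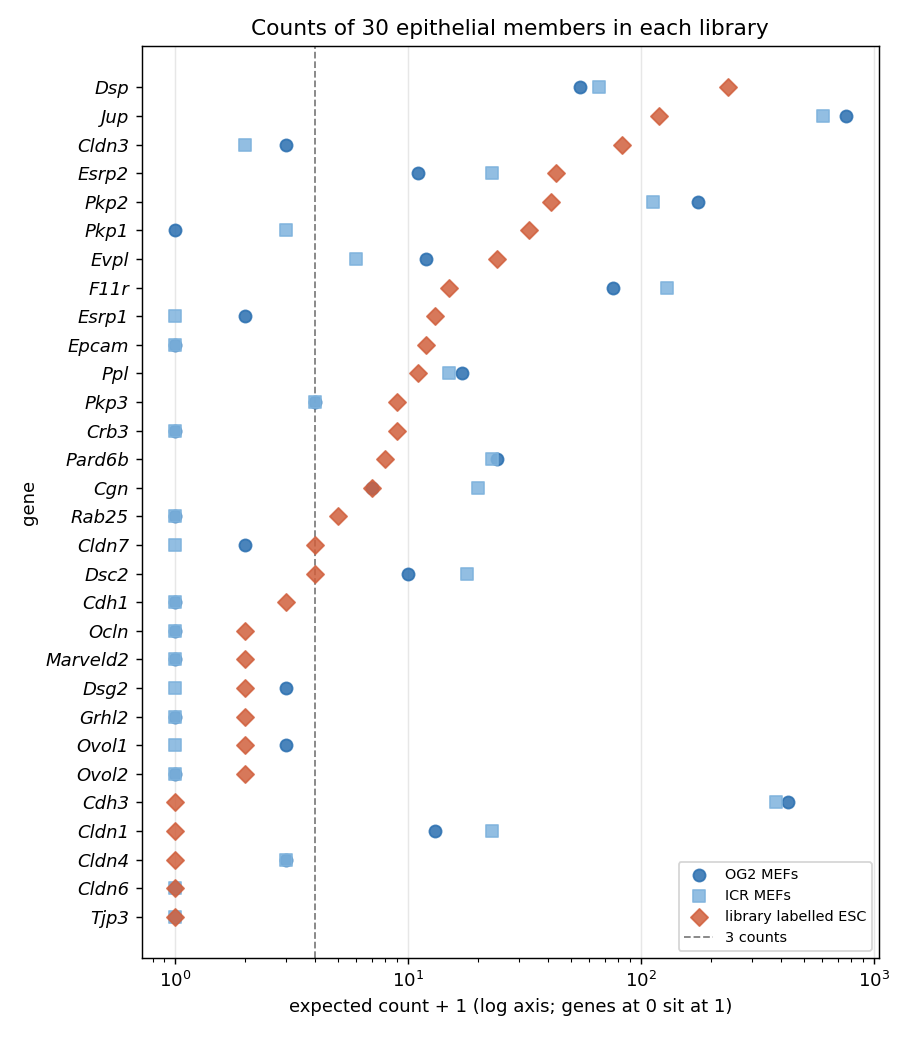
Expected counts + 1 on a log axis for the 30 mainly epithelial members, sorted by the library labelled ESC (diamonds), with OG2 MEFs (circles) and ICR MEFs (squares); the dashed line marks 3 counts. In the library labelled ESC 16 genes lie to the right of the line, and Cdh3 is at 426 and 380 counts in the MEF samples and at 0 there.

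Of 9 stratified epithelial markers, 7 had a count, and 3 of these were at least 1 log2(CPM + 1) unit higher in the library labelled ESC (42.9%, beside 21.9% of all genes), with none lower. Krt14 had 2, 8 and 414 counts, Krt6a 0, 0 and 28, and Sfn 17, 9 and 48. Krt10, of differentiated epidermis, had 13, 6 and 2 counts and was between. Krt5, which pairs with Krt14 in basal cells, and Krt1 had 0 counts in all libraries, and Trp63 had 1, 3 and 0. The summed level of the 9 was 8.63, 7.44 and 229 TPM, and without Krt14 it was 8.16, 4.72 and 24.2 TPM. The fibroblast list still had all 10 genes over 3 counts in that library, and their summed level was 12220, 14400 and 2593 TPM. Of these sums S100a4, which many other cell types also express, made up 3886, 5036 and 2372 TPM, and the other 9 genes came to 8337, 9366 and 220 TPM. By log2(CPM + 1), those 9 were at least 1 unit lower in the library labelled ESC (90%, beside 25.9% of all genes with a count). S100a4 was between on that scale, with a difference of 0.77. The part of these cell types in the junction results was not tested.

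A wider list of 49 junction genes outside the members was near the background. Of the 39 with a count, 7 were higher and 9 lower than both MEF samples by at least 1 log2(CPM + 1) unit, which is 17.9% and 23.1%, beside 21.9% and 25.9% of all genes. Of the 26 that edgeR tested, 4 were called higher and 8 lower, or 15.4% and 30.8%, beside 31.4% and 36.0%. Chosen after their values were seen, St14, a membrane protease of epithelia, had 6, 10 and 89 counts with a difference of 4.72, and its inhibitor Spint2 had 25, 22 and 81 counts with a difference of 3.47. On the other side, Vcl, the vinculin that links junctions to actin, had 5113, 4222 and 19 counts with a difference of -5.88, and Cgnl1, or paracingulin, had 726, 669 and 4 counts with a difference of -5.07.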

How the data were processed

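RNA-seq of 2 MEF samples and 1 ESC sample was used. Per the paper, reads were trimmed with TRIMMOMATIC and aligned with bowtie2 to Ensembl v67 transcripts, and the submitters' processing notes name Bowtie, RSEM and mm10; tool versions are not given in the sources used here, and the annotation release is unsure. Libraries of reprogramming cells were not analysed here. The deposited tables of the authors' RSEM run hold expected counts, which were treated as not yet normalized for GC content, TPM and FPKM (not used here). RSEM divides reads among similar genes. Expected counts were rounded, scaled by TMM factors of 1.09 (OG2), 1.13 (ICR) and 0.812 (ESC) and given as log2(CPM + 1), which understates changes of low genes. The threshold of 1 log2 unit follows the paper. edgeR 4.0.16 (R 4.3.3, quasi-likelihood, Benjamini-Hochberg) was fitted to all genes. It was also run on simulated data in which few genes changed, unlike here, so that run does not vouch for these calls. Counting folds pool the MEF counts over TMM-scaled libraries. Intervals are at 95%, cover counting error only, since reads lack molecular identifiers. The MEF samples were 1 per strain, and the labels name no repeat culture of either strain. The p-values therefore measure only the spread between these 2 samples, in which strain, culture and technical spread cannot be told apart. Symbols and coordinates came from GENCODE M21 on GRCm38 (98.3% of identifiers matched). All 44 members were to be named, with the 6 mesenchymal factors and the top genes of the marker lists; members, lists and tests were chosen with earlier results of these data known. Alternatives were other pseudocounts, scalings, filters, a length correction in 20 bins, DESeq2 1.42.0 as the count test and each MEF sample left out. Python 3.11.15 and scipy 1.17.1 did the rest.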

Additional observations from a re-analysis of the deposited data

How the results depend on the processing

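Of the members, 16 were higher and 8 lower in the library labelled ESC. The higher members became 10 with a pseudocount of 5, 10 with a minimum of 10 counts in 1 library (which leaves 26 members) and 10 with TPM, where 13 were lower. The cause was not tested, except that the minimum removes members. No share of all genes is given for any alternative in this section, so these counts of members have no background beside them. With TPM, Cdh13 became -0.036 and Ppl -0.088, both reversed in sign, and Cdh2, Jup, Cldn12, F11r and Pkp2 passed the threshold as lower. Counted between OG2 and ICR, 1 member was apart, and this count was 9 when the pseudocount was 0.1, 0 when it was 5 and 0 after full-quantile normalization (a rule of size with no test). The members called higher by edgeR (7) became 13 without its filter on low counts, and DESeq2 called 10 higher and 6 lower. Without the OG2 sample 16 members were higher and 9 lower (F11r added), and without the ICR sample 17 and 8 (Cgn added). The median difference of genes with 10 counts in a library moved by 0.13 with a pseudocount of 5, 0.17 with median-of-ratios size factors, 0.19 with full-quantile normalization and 0.20 with the length correction. For single members, apart from leaving out a MEF sample, 172 values moved by more than the MEF SD, the reversed ones included, and 106 did not. No paired analysis was possible because only 1 ESC sample exists in the comparison. Leaving out a MEF sample was not tried in edgeR, since no residual degrees of freedom would remain.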
